A study of Mus musculus with 12 samples.

Results

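The 9 genes Lcn2, Saa3, C3, Il6, Lif, Csf1, Ptgs1, Ptgs2 and Ptges encode acute phase proteins, cytokines and enzymes of prostaglandin synthesis. They were followed in RNA-seq counts of mouse embryonic fibroblasts, connective tissue cells taken from the embryo and cultured. The genes were taken by symbol from a table of 23366 gene symbols, and all 9 were found. Where a symbol had several transcript rows, the row with the highest count summed over the 8 libraries was kept, so rows were chosen by their total count and by no contrast. The kept rows summed to between 860 counts (Il6) and 90723 counts (Csf1). The genes were listed with earlier results of these data known, so the tests below describe them and are not independent support for the list.

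There were 4 groups of 2 libraries. They were Carm1 knockout cells kept 18 h in glucose-free DMEM with 10% dialyzed serum, knockout cells in rich medium (DMEM with 10% fetal bovine serum, 0 h), wild-type cells starved for 18 h, and wild-type cells in rich medium (0 h). All were C57BL/6 cells at passages 3 to 5. Carm1 encodes an arginine methyltransferase of histone H3 and other proteins that acts as a transcriptional coactivator, and the study asked how it contributes to gene expression in starved cells. Starved and rich cultures differed in serum dialysis and in hours as well as in glucose, which cannot be told apart here. The labels do not give the number of embryos or separate lines behind a genotype, nor whether replicates were separate cultures, so p-values reflect the spread of these libraries alone, which may be technical.

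As background, acute phase proteins are secreted by liver and by stromal cells when interleukin 1, interleukin 6 or tumour necrosis factor signals reach them. NF-kB and C/EBP factors are known to induce Lcn2, Saa3, C3, Il6 and Ptgs2 in fibroblasts, and Il6 and Ptgs2 mRNAs are short-lived. Prostaglandin E2 is made in steps: a cyclooxygenase (encoded by Ptgs1 or Ptgs2) converts arachidonic acid to prostaglandin H2, and a prostaglandin E synthase such as the product of Ptges completes the synthesis.

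RefSeq promoters (build GRCm38.p6, 250 bases before to 50 bases after the annotated start) were matched for all 9 genes. Shown here, 5′ to 3′ on the gene's strand, are those of Il6 and Saa3, which were lower in starved than in rich knockout cells, and of Csf1 and Ptgs2, which were higher. They lie at chr5:30012864-30013163 (plus strand), chr7:46715627-46715926 (minus strand), chr3:107760420-107760719 (minus strand) and chr1:150099781-150100080 (plus strand). Capitals mark matches, on either strand, to TATAAA, to TTGCNNNAA or to the kappa B type motif (GGGNN followed directly by TTTCC). Matches to the cyclic AMP response type motif TGACGT and to the AP-1 type motif TGANTCA are also in capitals. TTGCNNNAA was searched for as a C/EBP type motif, but it cannot match closer spaced letters such as ttgcgcaa in Ptgs2.
Il6: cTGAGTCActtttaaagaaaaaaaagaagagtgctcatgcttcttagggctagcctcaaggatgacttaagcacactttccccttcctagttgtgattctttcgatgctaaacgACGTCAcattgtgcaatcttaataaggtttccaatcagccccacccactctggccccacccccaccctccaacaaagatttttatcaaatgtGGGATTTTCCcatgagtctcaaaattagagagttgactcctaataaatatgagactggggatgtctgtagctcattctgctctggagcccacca
Saa3: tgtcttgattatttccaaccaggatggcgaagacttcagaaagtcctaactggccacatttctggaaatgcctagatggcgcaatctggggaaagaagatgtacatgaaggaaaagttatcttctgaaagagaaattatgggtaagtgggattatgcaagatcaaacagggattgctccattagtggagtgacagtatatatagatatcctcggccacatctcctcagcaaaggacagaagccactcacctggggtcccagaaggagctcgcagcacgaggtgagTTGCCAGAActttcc
Csf1: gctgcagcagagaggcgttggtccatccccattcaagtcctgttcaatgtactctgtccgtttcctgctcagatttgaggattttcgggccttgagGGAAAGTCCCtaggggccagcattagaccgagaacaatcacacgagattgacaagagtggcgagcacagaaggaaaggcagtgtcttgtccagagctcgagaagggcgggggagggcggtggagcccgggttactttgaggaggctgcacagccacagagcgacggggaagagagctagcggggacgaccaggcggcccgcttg
Ptgs2: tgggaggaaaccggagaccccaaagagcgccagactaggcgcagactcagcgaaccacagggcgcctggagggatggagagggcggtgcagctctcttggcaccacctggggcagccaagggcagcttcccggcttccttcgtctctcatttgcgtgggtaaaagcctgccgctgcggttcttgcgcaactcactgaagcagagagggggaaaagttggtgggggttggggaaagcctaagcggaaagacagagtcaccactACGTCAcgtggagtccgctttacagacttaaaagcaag

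Il6 held a kappa B type match from -44 to -35 relative to the start, a cyclic AMP response type match from -136 to -131 and an AP-1 type match from -249 to -243. The other kappa B type match was in Csf1, from -154 to -145. Ptgs2 held a cyclic AMP response type match from 13 to 18, and Lif an AP-1 type match from -228 to -222. C3 held a TATAAA match from 15 to 20, and Saa3 and Ptgs1 each a TTGCNNNAA match. The promoters of Lcn2 and Ptges held none of these letters. No matches overlapped. Kappa B type matches were present in 2 of the 9 promoters and in 1.63% of 32851 RefSeq promoters. TTGCNNNAA was in 2 of 9 against 9.56% of all. It cannot match ttgcgcaa in Ptgs2 or ttgtgcaa in Il6, so its count does not show which promoters hold C/EBP type letters. The cyclic AMP response type was in 2 of 9 against 7.51%, the AP-1 type in 2 of 9 against 7.81%, and TATAAA in 1 of 9 against 13.6%. These are matches of letters and not evidence of binding.

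**Figure D1:**
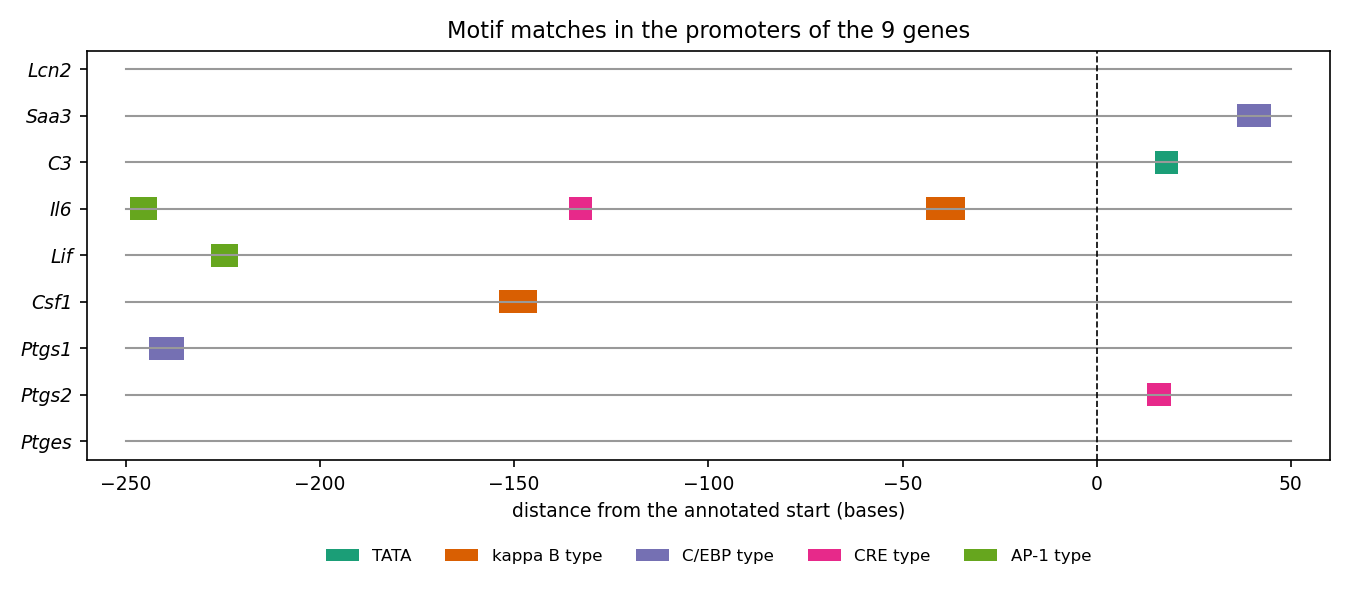
Motif matches (coloured blocks, either strand) along the RefSeq promoters of the 9 genes, with the distance from the annotated start in bases on the x axis (dashed line, the start). Il6 carries 3 of the 9 matches, and the lines of Lcn2 and Ptges are empty. Blocks for the C/EBP type are matches to TTGCNNNAA only.

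Gene counts totalled 8447016 to 28155438 per library. Levels are in CPM, counts scaled to the effective library size, and 3 counts equal 0.369 CPM in the shallowest library and 0.104 CPM in the deepest. Carm1 stood at 53.9 to 58.6 CPM in starved and 48.1 to 70.8 CPM in rich knockout libraries, against 164 to 176 CPM in starved and 204 to 207 CPM in rich wild-type libraries. The rich knockout pair lay far apart: the SD across genes of the log2 ratio of its replicates was 0.770, against 0.155 to 0.163 in the other groups, and replicate 1 had the fewest counts. Among 12 fibroblast markers all reached 1 CPM in some library, but Dcn, Thy1 and Pdgfra averaged 1212, 174 and 32.8 CPM in starved knockout cells, against 0.740, 0.114 and 3.53 CPM in starved wild-type cells, which puts Dcn and Thy1 near 0 in the wild type. Of the 12 markers, 9 were higher and 1 lower in starved knockout cells and 8 higher and 2 lower in rich medium. Over all genes tested the shares were 27.8% and 26.8% after starvation and 23.4% and 20.6% in rich medium. Thy1 passed the filter on low counts through knockout libraries alone, so a difference was built in. The other 11 were 8 higher and 1 lower after starvation, and 7 higher and 2 lower in rich medium. Col1a1 was lower in both media. It stood at 646 and 1005 CPM in starved and rich knockout cells against 1453 and 2791 CPM in starved and rich wild-type cells. Xist, named after its values were seen, had 0 to 6 counts in knockout and 18657 to 23751 in wild-type libraries. The genotypes thus differed in other ways than at Carm1, and these cannot be told apart from the loss of Carm1 in the comparisons below.

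All 9 genes were higher in knockout than in wild-type cells after starvation, and 8 of 9 in rich medium, where Csf1 was near equal. Of 13882 genes tested, 54.6% were called after starvation (27.8% higher and 26.8% lower in knockout cells) and 44% in rich medium (23.4% higher and 20.6% lower) (edgeR quasi-likelihood test, Benjamini-Hochberg adjusted p under 0.05 over all genes). The libraries of the genotypes did not overlap for any of the 9 genes in either medium, although for Csf1 in rich medium the gap was small. How many of all genes tested lacked such overlap was not counted, so this only describes the 9 genes. The median log2 fold change of the 9, knockout over wild type, was 7.07 after starvation and 7.17 in rich medium, against -0.02 and 0.00 over all genes tested. Leaving out any library in turn left the calls at 9 of 9 and 8 of 9. Saa3, Il6 and Ptges passed the filter on low counts through knockout libraries alone, so a difference between genotypes was built into their being tested. The counts and medians above include them. Among the 6 genes over the minimum in a library of both genotypes, 6 were higher after starvation and 5 in rich medium. Their median log2 fold changes were 6.28 and 4.52. Of 12206 such genes, 25.9% and 21.4% were higher, with medians of -0.01 and 0.00. As RNA was taken from whole cultures, fewer expressing cells and less RNA per cell cannot be told apart.

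**Figure D2:**
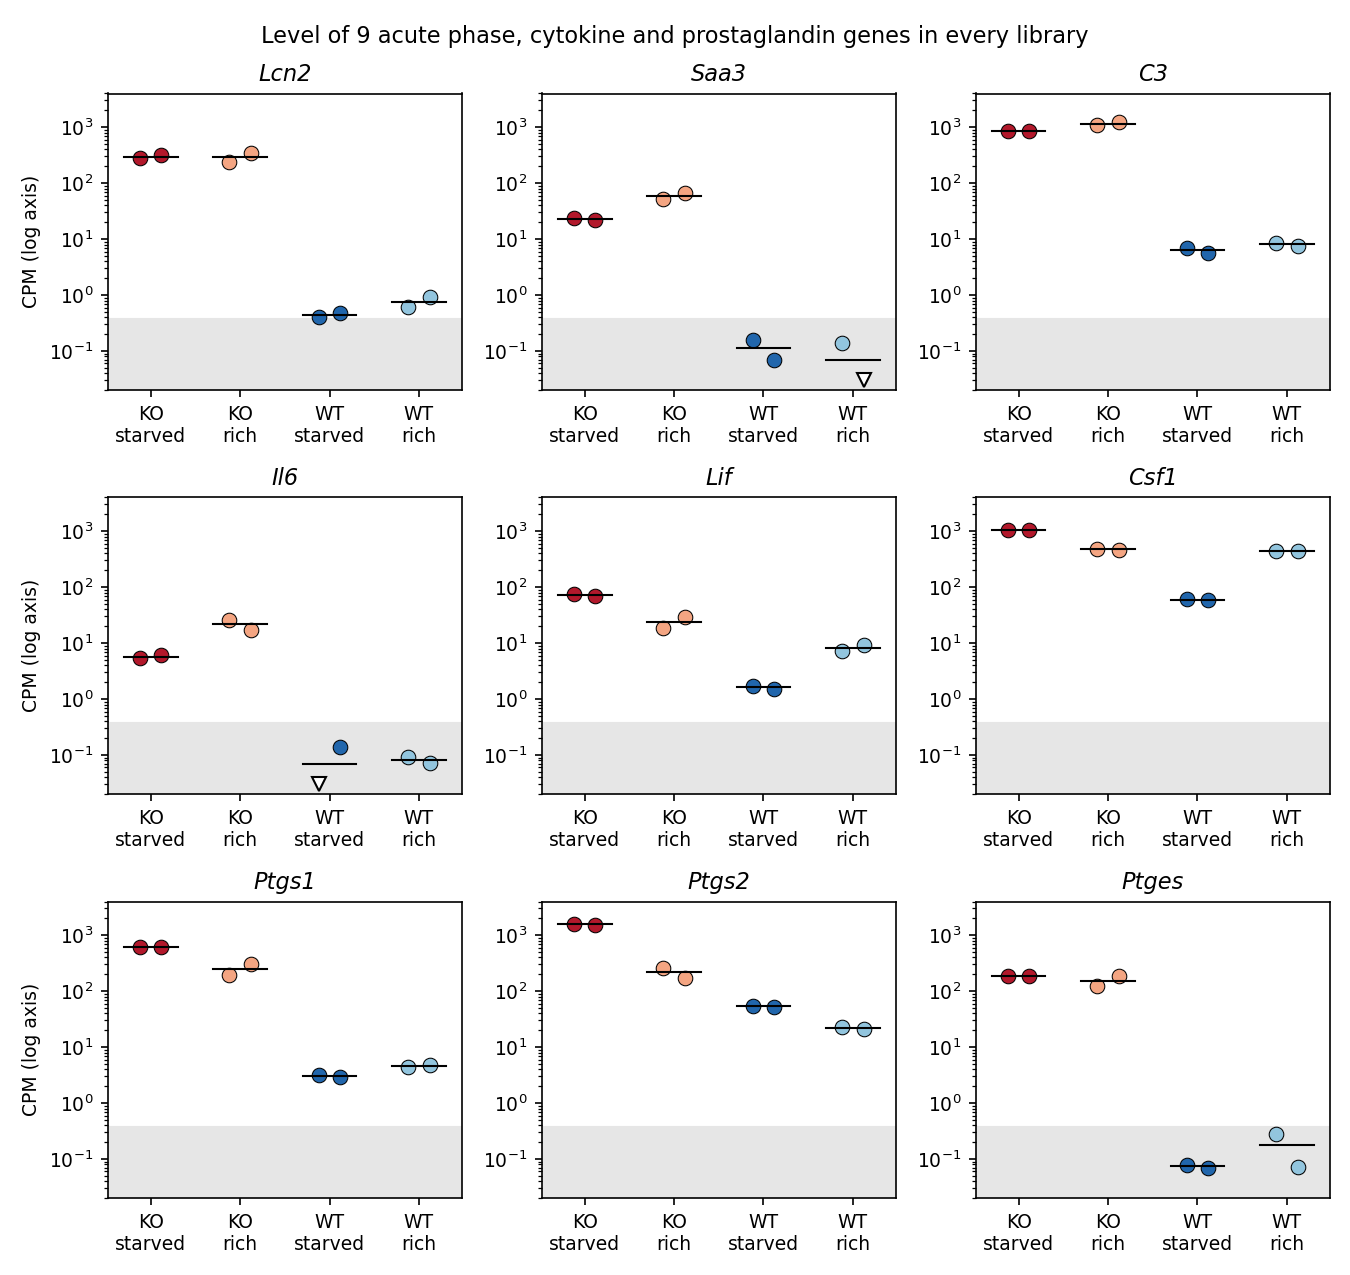
CPM (log axis) of each gene in every library, with starved knockout, rich knockout, starved wild-type and rich wild-type cells left to right. Points are libraries, lines are means of 2, triangles are libraries at 0 counts, and the grey band lies under 3 counts of the shallowest library (0.369 CPM). Every knockout point lies above the wild-type points of the same medium.

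Among the acute phase genes, Lcn2 encodes lipocalin 2, which binds bacterial iron-siderophore complexes. Lcn2 stood at 283 and 315 CPM in starved knockout libraries and at 236 and 345 CPM in rich knockout libraries, against 0.399 and 0.485 CPM in starved wild-type and 0.604 and 0.927 CPM in rich wild-type libraries. Knockout levels were high in both media and wild-type levels close to the detection limit. The log2 fold change, knockout over wild type, was 9.38 ± 0.33 (SE) after starvation (edgeR adjusted p = 3.54e-06) and 8.53 ± 0.31 in rich medium (edgeR adjusted p = 7.6e-06). In knockout cells the direction after starvation depended on the rich replicate: the log2 change was 0.04 ± 0.21, but -0.19 without rich replicate 1 and 0.35 without rich replicate 2, and both of these passed the threshold (edgeR adjusted p = 0.0289 and 0.000135).

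C3 encodes the central component of complement. It stood at 849 and 855 CPM in starved knockout and 1107 and 1217 CPM in rich knockout libraries, against 6.97 and 5.68 CPM in starved wild-type and 8.64 and 7.52 CPM in rich wild-type libraries. Starved libraries lay below rich ones in both genotypes. The knockout was higher by 7.07 ± 0.19 after starvation (log2, edgeR adjusted p = 2.43e-06) and by 7.17 ± 0.19 in rich medium (edgeR adjusted p = 3.63e-06). The starvation changes of -0.45 ± 0.14 in knockout and -0.35 ± 0.16 in wild-type cells did not pass (edgeR adjusted p = 0.073 and 0.126), though both passed without either rich knockout replicate.

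Saa3 encodes a serum amyloid A protein made outside the liver. It stood at 24.3 and 22.2 CPM in starved knockout and 51.4 and 67.7 CPM in rich knockout libraries, whereas wild-type libraries had 4 and 2 counts when starved and 3 and 0 counts in rich medium. The knockout pairs did not overlap and the starved pair was lower, by a log2 change of -1.36 ± 0.31 (edgeR adjusted p = 0.0261). That call was lost without either starved knockout library and without either starved wild-type library (edgeR adjusted p = 0.0686 to 0.212). From summed counts, Saa3 was 209-fold higher in knockout than in wild-type cells after starvation (exact 95% interval 95.9 to 572) and 1045-fold higher in rich medium (357 to 5073). These intervals cover counting error only, and single libraries moved the fitted log2 fold change to between 7.13 and 8.28 after starvation (without starved wild-type replicate 2 and 1) and between 8.68 and 13.41 in rich medium (without rich wild-type replicate 2, and without replicate 1, which leaves 0 counts). With 6 and 3 counts, the wild-type groups allow a starved to rich ratio of 0.392 to 11.4.

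Il6 encodes interleukin 6, an inducer of the acute phase response. Its level was 5.33 and 6.02 CPM in starved knockout and 26.3 and 16.9 CPM in rich knockout libraries, with 0 and 4 counts in starved and 2 and 2 counts in rich wild-type libraries. The starved knockout pair was lower than the rich pair without overlap, and Il6 fell by 1.92 ± 0.36 on the log2 scale (edgeR adjusted p = 0.014). Without either starved knockout library this call was lost (edgeR adjusted p = 0.122 and 0.137). Summed counts put Il6 76.5-fold higher in knockout than in wild-type cells after starvation (exact 95% interval 29.5 to 283) and 242-fold higher in rich medium (93.9 to 890). The fitted log2 fold change after starvation was 5.30 without starved wild-type replicate 1 and 9.95 without replicate 2, which leaves 0 counts.

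Lif encodes leukemia inhibitory factor, a cytokine of the interleukin 6 family. It stood at 75.5 and 70.2 CPM in starved knockout and 18.3 and 29.9 CPM in rich knockout libraries, against 1.71 and 1.52 CPM in starved wild-type and 7.25 and 9.16 CPM in rich wild-type libraries. The starved pair was the higher one in knockout cells and the lower one in wild-type cells. Starvation raised Lif by 1.58 ± 0.25 (log2) in knockout cells (edgeR adjusted p = 0.00748), and Lif fell by 2.34 ± 0.28 in wild-type cells (edgeR adjusted p = 0.00143). The knockout call was lost without either starved knockout library (edgeR adjusted p = 0.0723 and 0.0649), while the wild-type call held without any library in turn. Between genotypes the log2 difference was 5.49 ± 0.30 in starved cells and 1.56 ± 0.25 in rich medium.

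Csf1 encodes macrophage colony-stimulating factor, on which macrophages depend for survival. It stood at 1066 and 1071 CPM in starved knockout and 480 and 462 CPM in rich knockout libraries, against 60.9 and 58.7 CPM in starved wild-type and 446.7 and 446.8 CPM in rich wild-type libraries. Replicates lay close together and the genotypes started from near the same level. The rich medium difference, knockout over wild type, was 0.08 ± 0.11 on the log2 scale (edgeR adjusted p = 0.596), which does not show equality. Starvation raised Csf1 by 1.18 ± 0.11 in knockout cells (edgeR adjusted p = 0.00157) and lowered it in wild-type cells, where it fell by 2.90 ± 0.12 (edgeR adjusted p = 5.61e-05). After starvation the knockout was higher by 4.16 ± 0.13. The table held 3 transcript rows for Csf1. With the row of the lowest total, the rich medium difference was 0.41 (edgeR adjusted p = 0.0662) and the starvation changes were 1.05 in knockout and -2.57 in wild-type cells, with the same calls.

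Ptgs1 encodes the cyclooxygenase that many cells make constitutively. It stood at 619.9 and 620.0 CPM in starved knockout and 194 and 301 CPM in rich knockout libraries, against 3.19 and 2.91 CPM in starved wild-type and 4.37 and 4.88 CPM in rich wild-type libraries. Wild-type levels were low in both media, and the starved knockout pair was the highest. Ptgs1 rose by 1.32 ± 0.21 (log2) on starvation of knockout cells (edgeR adjusted p = 0.00746), a call lost without either starved knockout library (edgeR adjusted p = 0.069 and 0.0705). The change of -0.60 ± 0.24 in wild-type cells did not pass (edgeR adjusted p = 0.0905), but did without either rich knockout replicate. The knockout was higher by 7.67 ± 0.28 after starvation and by 5.74 ± 0.26 in rich medium.

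Ptgs2 encodes the inducible cyclooxygenase. It stood at 1594 and 1541 CPM in starved knockout and 259.6 and 175 CPM in rich knockout libraries, against 55.0 and 51.9 CPM in starved wild-type and 23.1 and 20.7 CPM in rich wild-type libraries. It was the one gene of the 9 called higher on starvation in both genotypes, by 2.85 ± 0.20 (log2) in knockout cells (edgeR adjusted p = 0.000758) and by 1.29 ± 0.20 in wild-type cells (edgeR adjusted p = 0.00341). Both calls held without any library in turn, with log2 changes of 2.60 to 3.18 in knockout cells and 1.21 to 1.37 in wild-type cells. The knockout was higher by 4.87 ± 0.22 after starvation and by 3.31 ± 0.21 in rich medium.

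Ptges encodes microsomal prostaglandin E synthase 1, which acts downstream of the cyclooxygenases. It stood at 189.6 and 190.4 CPM in starved knockout and 122 and 185 CPM in rich knockout libraries, with 2 and 2 counts in starved and 6 and 2 counts in rich wild-type libraries. Summed counts put Ptges 2563-fold higher in knockout than in wild-type cells after starvation (exact 95% interval 1001 to 9410) and 1039-fold higher in rich medium (527 to 2408). The fitted log2 fold change in rich medium was 9.07 without rich wild-type replicate 2 and 10.96 without replicate 1. The starvation change in knockout cells was 0.31 ± 0.25 on the log2 scale and did not pass (edgeR adjusted p = 0.432). It passed without rich replicate 2 (0.65) but not without rich replicate 1 (0.06).

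**Figure D3:**
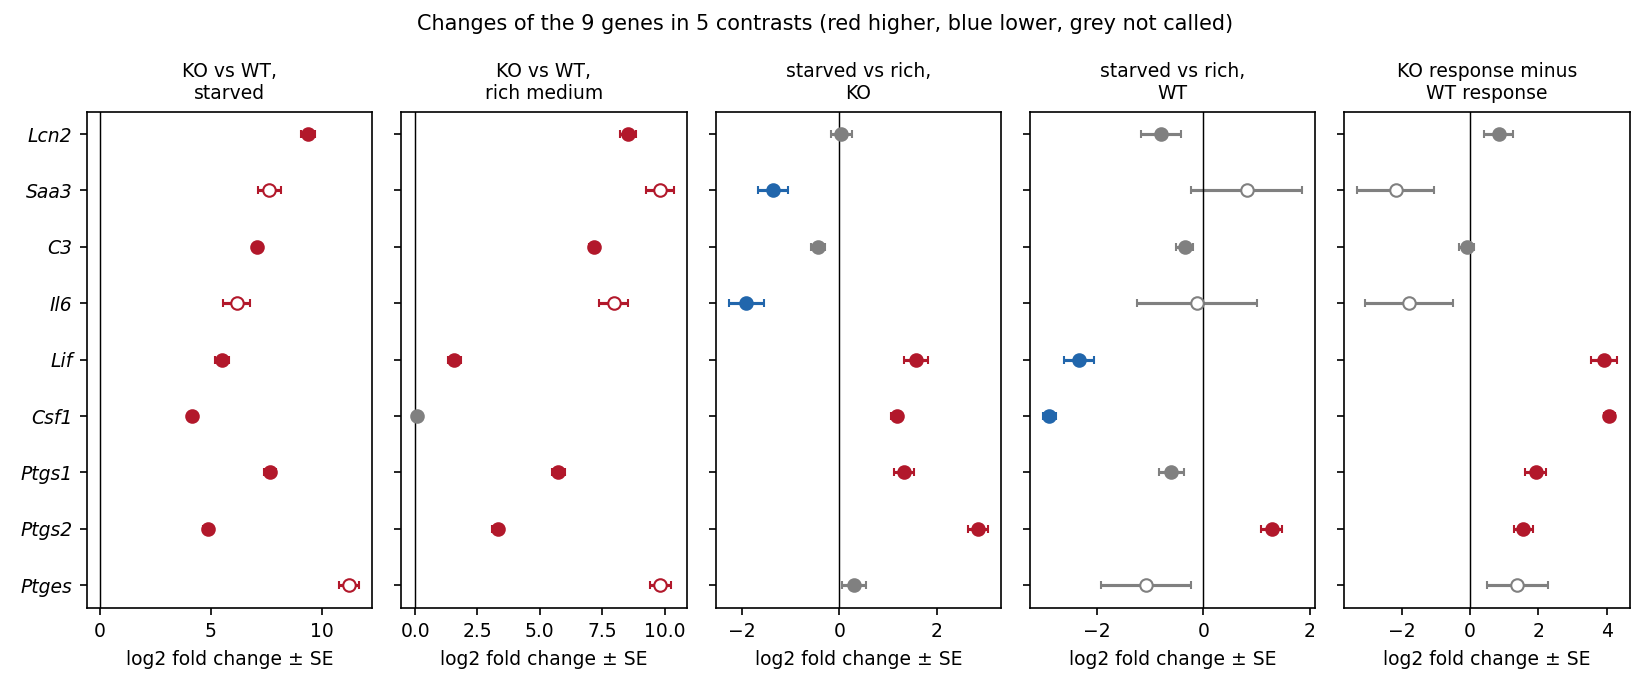
Log2 fold changes ± SE of the 9 genes in each contrast, from the fit over all 8 libraries. Open circles mark estimates that rest on wild-type groups with 3 to 8 counts and depend on the prior count. All points are right of 0 between genotypes, while the starvation contrasts go both ways.

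Starvation of knockout cells raised 4 of the 9 genes (Lif, Csf1, Ptgs1 and Ptgs2) and lowered 2 (Saa3 and Il6), against 18.2% of all genes called, 8.44% higher and 9.78% lower. In wild-type cells 1 of the 9 rose (Ptgs2) and 2 fell (Lif and Csf1), against 32.9% of all genes called, 14.8% higher and 18% lower. Of the 6 knockout calls, those for Csf1 and Ptgs2 held without any library in turn. The test of the difference between the responses, knockout minus wild type, passed for 4 genes, all in the positive direction, against 13.3% of all genes, 7.42% positive and 5.91% negative. Without rich knockout replicate 1, 4 rose and 4 fell in knockout cells, and 1 rose and 5 fell in wild-type cells, but the counts over all genes also went up, to 7102 and 9527 called against 2528 and 4561. A fit of the 4 knockout libraries alone called 0 of the 9 genes and 0 of all genes with edgeR, with adjusted p for those 6 genes between 0.0625 and 0.104. At an unadjusted p under 0.05 that fit had 2803 of all genes and 6 of the 9. Over all 8 libraries, 7 of the 9 passed with DESeq2 and 6 with limma-voom. The contrasts share libraries, and the responses are given side by side as each one's own values.

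**Figure D4:**
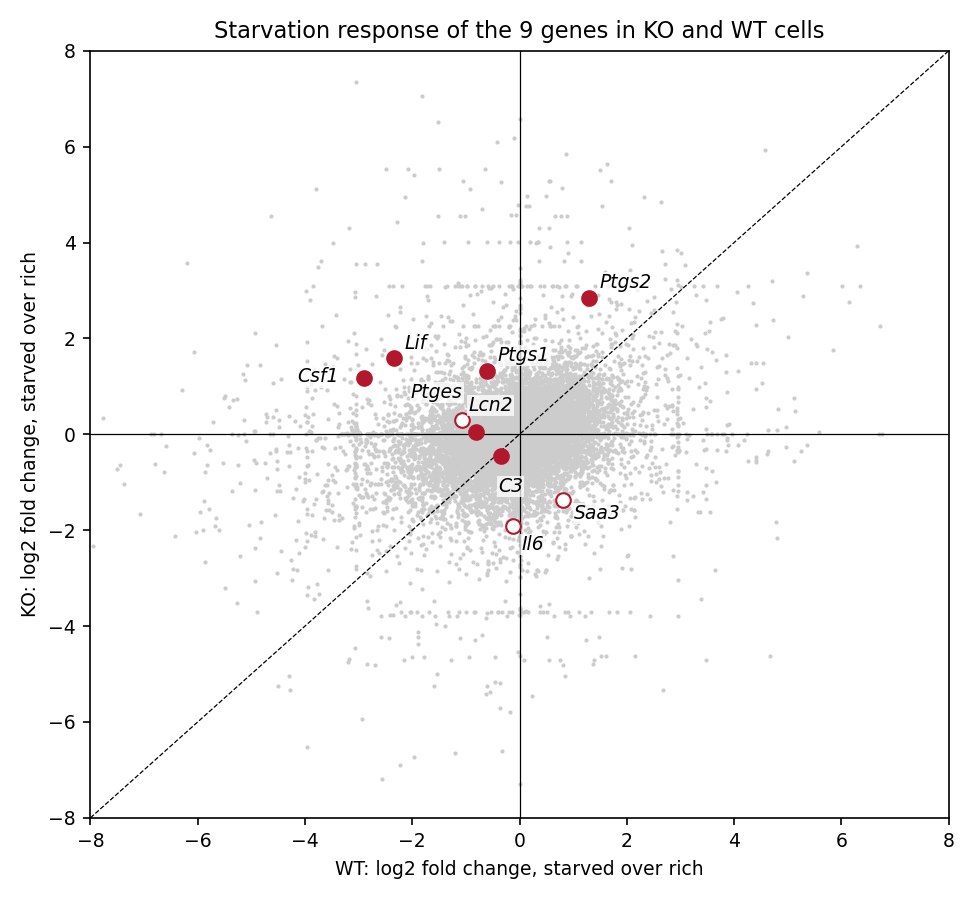
Log2 fold change on starvation in knockout cells (y axis) and in wild-type cells (x axis) for the 9 genes (red) and the other genes tested (grey), with 7 genes outside the axes. The dashed line marks equal responses, and open circles have 3 to 8 counts in wild-type groups. Csf1 and Lif sit at upper left, and Ptgs2 at upper right, above the line.

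Other genes of these pathways were counted from lists of named genes, of which many were not detected well enough to test: 12 of 24 acute phase genes, 10 of 22 complement genes and 21 of 31 prostaglandin genes passed the filter. Some passed through the libraries of 1 genotype alone, so a difference was built into their being tested. Through knockout libraries alone these were 4 acute phase, 2 complement, 3 ligand, 1 receptor, 0 inducing or decay and 3 prostaglandin genes, and through wild-type libraries alone 1, 0, 0, 2, 1 and 1. Of the genes of these lists named below, Hp, C3ar1, Csf2, Il33 and Csf1r passed through knockout libraries alone. Lifr and Cebpa passed through wild-type libraries alone. The counts and medians of the lists therefore only describe the genes that could be tested. Among genes over the minimum in a library of both genotypes, the counts higher and lower in starved knockout cells were 5 and 1 of 7 for acute phase, 4 and 2 of 8 for complement, 8 and 1 of 11 for ligands, 9 and 0 of 14 for receptors, 9 and 1 of 13 for inducing and decay factors and 8 and 3 of 17 for prostaglandin genes, against 25.9% and 24.5% of 12206 such genes. In rich medium they were 4 and 1, 5 and 1, 4 and 3, 8 and 0, 8 and 1, and 6 and 1 in the same order, against 21.4% and 17.9%. Of the 12 acute phase genes, 7 were higher and 1 lower in starved knockout cells, and 7 higher and 2 lower in rich medium, with median log2 fold changes of 1.03 and 2.44. Cp, which encodes the copper-carrying ferroxidase ceruloplasmin, stood at 251 and 244 CPM in starved knockout and 973 and 666 CPM in rich knockout libraries, against 1.16 and 1.14 CPM in starved wild-type and 0.743 and 0.713 CPM in rich wild-type libraries. Like Saa3 and Il6, it was lower in starved than in rich knockout cells (log2 -1.73 ± 0.19, edgeR adjusted p = 0.00233). Lbp, the lipopolysaccharide binding protein gene, showed 30.7 and 30.4 CPM in starved and 77.2 and 83.7 CPM in rich knockout libraries (-1.40 ± 0.19, edgeR adjusted p = 0.00442). The haptoglobin gene Hp changed by -4.47 ± 0.68 in knockout cells (edgeR adjusted p = 0.00963). It had only 7 and 6 counts in starved knockout libraries, and its rich knockout replicates lay apart at 3.32 and 8.39 CPM (27 and 181 counts). Ptx3, which encodes the pattern recognition protein pentraxin 3, went the other way: it rose by 0.95 ± 0.20 on starvation of knockout cells (edgeR adjusted p = 0.0194) and fell by 2.51 ± 0.20 in wild-type cells (edgeR adjusted p = 0.000393).

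Among 10 complement genes, 5 were higher and 2 lower in starved knockout cells, and 6 higher and 1 lower in rich medium, with medians of 3.01 and 2.83. C1s and C1ra, proteases that start the classical pathway, were higher by 4.67 ± 0.16 and 3.65 ± 0.18 after starvation. Both fell on starvation, with log2 changes of -1.04 ± 0.13 in knockout and -2.58 ± 0.15 in wild-type cells for C1s and of -0.75 ± 0.16 in knockout and -1.86 ± 0.17 in wild-type cells for C1ra. C3ar1, the receptor for the C3a fragment, was at least 96.3-fold higher in knockout than in wild-type cells after starvation and at least 32.3-fold higher in rich medium, against 3 counts over a wild-type group that had 0.

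Of 14 cytokine ligand genes tested, 11 were higher and 1 lower in starved knockout cells, and 7 higher and 3 lower in rich medium, with medians of 2.15 and 1.07. Csf2, which encodes granulocyte-macrophage colony-stimulating factor, had 51.7 and 46.5 CPM in starved and 6.77 and 4.68 CPM in rich knockout libraries and 0 counts in all wild-type libraries. It rose by 3.13 ± 0.26 on starvation of knockout cells (edgeR adjusted p = 0.00305) and was at least 885-fold higher in knockout than in wild-type cells after starvation. Il11, of the interleukin 6 family like Lif, rose on starvation in both genotypes, by 2.18 ± 0.44 in knockout cells (edgeR adjusted p = 0.0173) and by 1.91 ± 0.56 in wild-type cells (edgeR adjusted p = 0.0374). Il33, an interleukin 1 family gene, was 185-fold higher in knockout cells after starvation (exact 95% interval 78.9 to 571) and 203-fold higher in rich medium (106 to 444).

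Receptor genes went both ways between genotypes. Lifr, a subunit of the leukemia inhibitory factor receptor, had 0 and 2 counts in starved and 0 and 0 counts in rich knockout libraries, against 18.2 and 16.2 CPM in starved wild-type and 29.2 and 31.7 CPM in rich wild-type libraries. It was at least 303-fold lower in knockout than in wild-type cells in rich medium. Csf1r, the receptor for the product of Csf1, reached at most 2.24 CPM in knockout libraries and at most 4 counts in wild-type libraries. Slc22a17, described as a receptor for lipocalin 2, was lower in knockout cells by a log2 change of -6.11 ± 0.36 after starvation and -3.83 ± 0.33 in rich medium. Osmr, the oncostatin M receptor subunit, was higher by 3.21 ± 0.29 and 2.65 ± 0.28. Over the 17 receptor and signalling genes, 10 were higher and 2 lower in starved knockout cells, and 9 higher and 2 lower in rich medium, with medians of 1.06 and 0.70. Starvation lowered Stat3 and its feedback target Socs3 in knockout cells, with changes of -1.02 ± 0.16 and -1.76 ± 0.39 (log2, edgeR adjusted p = 0.00806 and 0.0231), with rich replicates of Socs3 at 47.0 and 121 CPM. Both also fell in wild-type cells, with changes of -0.77 ± 0.16 and -2.01 ± 0.40.

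Among 14 genes for inducing factors and for factors acting on the mRNAs, 9 were higher and 2 lower in starved knockout cells and 8 higher and 2 lower in rich medium, with medians of 1.32 and 0.70. Nfkbiz encodes an NF-kB cofactor needed for Lcn2 and Il6 induction in macrophages. It was higher in knockout cells by 4.33 ± 0.18 after starvation and by 2.06 ± 0.16 in rich medium, and fell by 2.63 ± 0.17 on starvation of wild-type cells. The NF-kB cofactor gene Bcl3 fell by 4.11 ± 0.34 in starved wild-type cells, and the C/EBP family gene Cebpd was higher in knockout cells in rich medium by 3.19 ± 0.46, with rich replicates at 45.5 and 134 CPM. Cebpa, of the same family, went the other way, with 0 counts in all knockout libraries and at least 46.7-fold lower than in wild-type cells after starvation and at least 8.98-fold lower in rich medium. Arid5a, whose product stabilises Il6 mRNA, rose on starvation in both genotypes, by 1.89 ± 0.34 in knockout and by 1.70 ± 0.34 in wild-type cells, whereas Il6 fell in the knockout and was near 0 in the wild type.

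In the prostaglandin list, 11 of 21 genes were higher and 4 lower in starved knockout cells, and 8 higher and 2 lower in rich medium, with medians of 0.67 and 0.48. Receptor genes went both ways. Ptger1, for prostaglandin E2, was lower in knockout cells by a log2 change of -1.82 ± 0.30 after starvation and -2.19 ± 0.31 in rich medium. Others were higher: Ptgfr, for prostaglandin F2 alpha, by 5.56 ± 0.34 after starvation and 4.36 ± 0.26 in rich medium, and Ptgir, for prostacyclin, by 4.34 ± 0.32 and 3.76 ± 0.32. Ptgfr fell on starvation in both genotypes, with log2 changes of -3.05 ± 0.24 in knockout and -4.24 ± 0.36 in wild-type cells. Slco2a1, a prostaglandin uptake transporter, rose by 1.57 ± 0.15 in starved knockout cells, and its response differed between genotypes by 2.03 ± 0.21 (edgeR adjusted p = 0.00204). Without rich knockout replicate 1, a repeat added after seeing that pair, the counts of genes called higher and lower in starved knockout cells against wild-type cells were 8 and 1 for acute phase, 8 and 2 for complement, 11 and 2 for ligands, 13 and 4 for receptors, 10 and 3 for inducing and decay factors, and 16 and 4 for prostaglandin genes. Over all genes the shares also went up in that repeat, to 39.6% higher and 40.6% lower. On starvation, the counts of genes called higher and lower in knockout cells were 1 and 5 for acute phase, 1 and 3 for complement, 3 and 2 for ligands, 0 and 3 for receptors, 1 and 0 for inducing and decay factors and 1 and 2 for prostaglandin genes, against 8.44% and 9.78% of all genes. In wild-type cells they were 3 and 3, 0 and 3, 1 and 4, 0 and 6, 3 and 5, and 2 and 5 in the same order of lists, against 14.8% and 18% of all genes. With so few genes a list, several of these counts lie near the share over all genes. The 3 lipocalin 2 partner genes tested held 1 higher and 2 lower in knockout cells in both media. The higher one, Mmp9, passed the filter through knockout libraries alone, so a difference was built in. The 2 over the minimum in a library of both genotypes were the lower ones. Of all such genes, 24.5% were lower after starvation and 17.9% in rich medium.

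**Figure D5:**
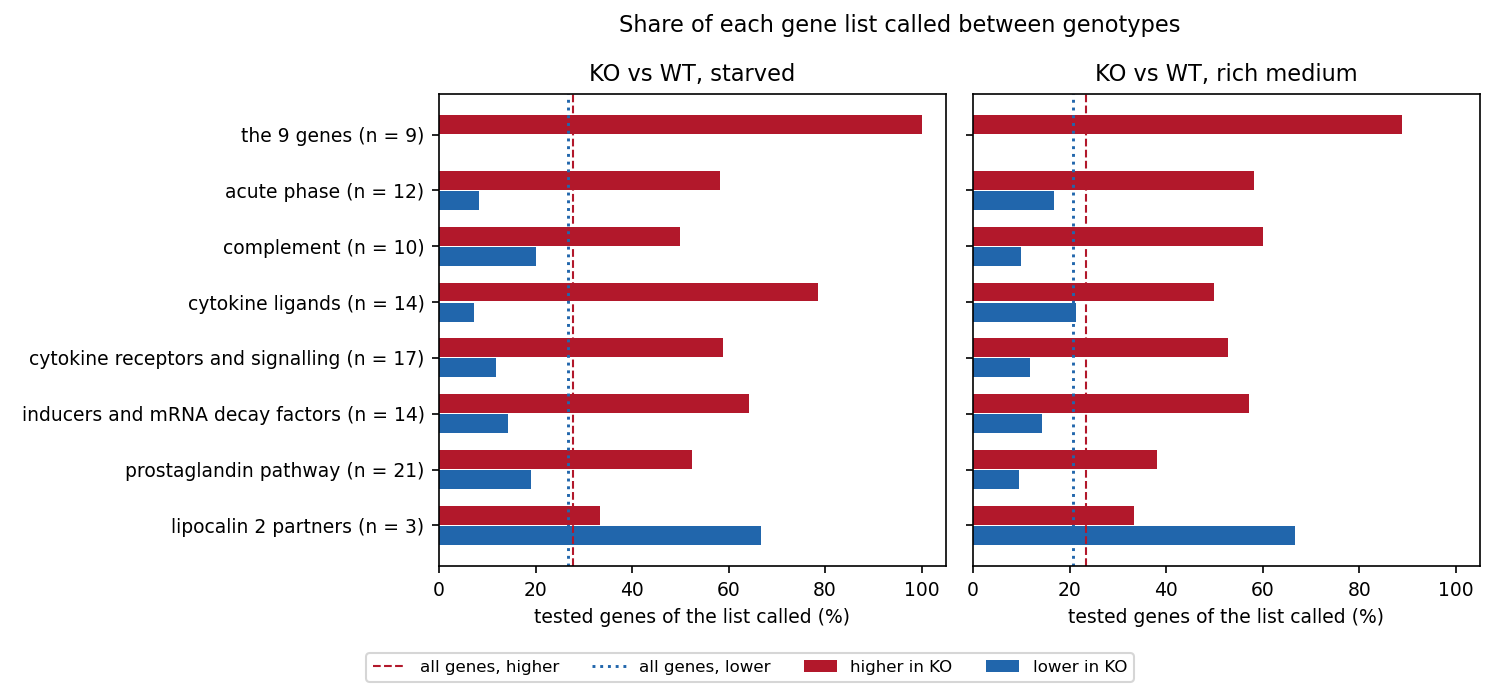
Percent of tested genes of each list called higher (red) or lower (blue) in knockout than in wild-type cells, after starvation (left) and in rich medium (right). Lines give the share of all 13882 genes, 27.8% higher and 26.8% lower after starvation and 23.4% and 20.6% in rich medium. In both panels the red bar of every list lies past the red line. The bars include genes that passed the filter through libraries of 1 genotype alone, which built in a difference. The lipocalin 2 partners (3 genes) have the longest blue bar, and their red bar is 1 such gene, Mmp9.

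Marker genes also differed with genotype. Fibroblast markers summed to 17684 and 17245 CPM in starved and 16821.5 and 20398 CPM in rich knockout libraries, against 8600.1 and 8436 CPM in starved and 12315 and 12351 CPM in rich wild-type libraries. Fn1, the fibronectin gene, gave most of that gap: without it the sums were 7097 and 6918 CPM in starved and 7743 and 10246.5 CPM in rich knockout libraries, against 5379 and 5842 CPM in starved and 8896 and 9033 CPM in rich wild-type libraries. Endothelial markers summed to 242 and 245 CPM in starved and 132 and 158 CPM in rich knockout libraries, against 2.09 to 5.30 CPM in wild-type libraries, nearly all of it from Cdh5. Pecam1 averaged 4.77 and 4.53 CPM in starved and rich knockout cells, Kdr was lower in knockout cells, and Tie1 and Emcn had 0 counts in all 8 libraries, so 3 of 8 endothelial markers reached 1 CPM in any library. Leukocyte markers summed to 25.9 and 28.7 CPM in starved and 17.2 and 36.9 CPM in rich knockout libraries, against 5.72 to 8.05 CPM in wild-type libraries, and 5 of 13 in the table reached 1 CPM. Of 6 tested, 5 were higher and 1 (Cd68) lower in starved knockout cells, and 4 higher and 0 lower in rich medium. Over all genes the shares were 27.8% and 26.8% after starvation and 23.4% and 20.6% in rich medium. However, 4 of the 6 passed the filter through knockout libraries alone, which built in a difference. The 2 over the minimum in both genotypes were 1 higher and 1 lower after starvation, and 1 higher and 0 lower in rich medium. Cd14, a lipopolysaccharide co-receptor gene, gave most of the gap between the mean sums of the genotypes, at 18.0 and 20.1 CPM in starved and 7.998 and 27.1 CPM in rich knockout libraries, against 2.91 and 2.53 CPM in starved and 3.44 and 3.14 CPM in rich wild-type libraries. The myeloid genes Itgam and Lyz2 averaged 1.80 and 2.00 CPM in starved and 3.45 and 2.47 CPM in rich knockout cells, against 0 counts and 2 counts in all 4 wild-type libraries together. Ptprc, which all leukocytes carry, had at most 18 counts in a library, and Tyrobp and Mpo had 0 counts in all 8. Epithelial markers summed to 55.2 and 50.5 CPM in starved and 18.7 and 30.0 CPM in rich knockout libraries, against 16.6 and 18.8 CPM in starved and 36.4 and 37.2 CPM in rich wild-type libraries, and 4 of 8 reached 1 CPM. Krt19 gave most of each sum. Without it the sums were 2.81 and 1.72 CPM in starved and 1.48 and 2.41 CPM in rich knockout libraries. In wild-type libraries they were 2.91 and 3.88 CPM when starved and 1.44 and 1.93 CPM in rich medium. What part the cells behind any of these markers had in the levels of the 9 genes was not tested.

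Across the 8 libraries the 9 genes fell into patterns of unequal likeness. Pearson correlations of log2 CPM (prior count 2), given as descriptions over 8 points that are 4 pairs, were 0.997 between Lcn2 and C3, 0.995 between Lcn2 and Ptges, 0.990 between Lcn2 and Ptgs1, and 0.943 between Lif and Csf1. The lowest was 0.594, between Csf1 and Ptgs2. Among 10667 other genes with at least 5 CPM in a group, the most like Lcn2 was Ank, which encodes a membrane protein that regulates pyrophosphate export (r = 0.999), at 214 and 195.8 CPM in starved and rich knockout cells against 19.0 and 22.0 CPM in starved and rich wild-type cells. The gene most like Lif was the salt-inducible kinase gene Sik1 (r = 0.998), and that most like Csf1 was Atxn1 (r = 0.997). For Ptgs2 it was the sterol acyltransferase gene Soat1 (r = 0.997), at 354 and 149.8 CPM in starved and rich knockout cells against 82.0 and 47.1 CPM in starved and rich wild-type cells. For C3 it was the proliferin gene Prl2c2, a member of a family of near-identical copies whose counts are uncertain (r = 0.999).

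Ptges, Lcn2 and Ptgs1 lie in that order on chromosome 2 in the RefSeq annotation, and the other 6 genes on chromosomes 1, 3, 5, 7, 11 and 17. Between Ptges and Ptgs1, 77 other genes were tested, of which 20.8% were called higher and 36.4% lower in knockout cells after starvation, and 13% higher and 29.9% lower in rich medium. Of all genes, 27.8% and 26.8% were called after starvation and 23.4% and 20.6% in rich medium. This stretch was looked at after the values of the 3 genes were known.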

How the data were processed

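TopHat2 2.0.9, bedtools and the build mm9 are named for the RNA libraries per the submitters' processing notes. The deposited values are raw read counts per RefSeq transcript, 1 column per library. How strand and multi-mapped reads were treated is not stated there, so overlapping, antisense and near-identical genes may share reads. The 4 chromatin immunoprecipitation and input libraries are not analysed here. The 9 genes and the gene lists were chosen with earlier results of these data known.

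Groups and replicate numbers came from sample titles. Of 31055 transcript rows, 1 per symbol was kept (highest total), and filterByExpr of edgeR 4.0.16 (R 4.3.3, minimum count 10) kept 13882 of 23366 genes. CPM was computed here on TMM-scaled library sizes. A group-means fit of all 8 libraries gave 5 quasi-likelihood contrasts, adjusted by Benjamini-Hochberg over all genes, with SE as the log2 fold change over the square root of F. The contrasts thus share a spread (biological coefficient of variation 18.5%) that also takes in the rich knockout pair. Exact 95% intervals of count ratios are binomial, and bounds against 0 counts use 3 counts over the group. The text names the 9 genes, Carm1, at most 4 genes of smallest p per list and contrast, the 3 genes most correlated with each of the 9, and genes said to be named later; Fn1, Ptger1 and defining markers at or near 0 were also named after their values were seen. Alternatives were RLE factors, no filter, DESeq2 1.42.0, limma-voom (limma 3.58.1) with quality weights, a replicate block, the 4 libraries compared, the lowest-total transcript and leaving out each library.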

Additional observations from a re-analysis of the deposited data

Results flagged for a closer look

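The starvation response differed between genotypes for 4 of the 9 genes by the test of the difference itself, knockout response minus wild-type response on the log2 scale (edgeR quasi-likelihood test). The difference was 4.08 ± 0.16 for Csf1 (adjusted p = 7.01e-05) and 3.92 ± 0.38 for Lif (adjusted p = 0.00182), each of which rose in knockout cells and fell in wild-type cells. Leaving out any library in turn kept these calls, with values of 4.04 to 4.15 and 3.69 to 4.36. For Ptgs1 it was 1.93 ± 0.31 (adjusted p = 0.00987) and for Ptgs2 1.56 ± 0.27 (adjusted p = 0.0131). These lost the threshold without any of 6 libraries, all but the rich knockout pair, in turn (adjusted p = 0.0513 to 0.0695 and 0.0598 to 0.0862).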

How the results depend on the processing

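Between genotypes, the calls for the 9 genes kept their number under each alternative run: 9 after starvation (9 to 9 when each library was left out) and 8 in rich medium (8 to 8). The starvation contrasts were less stable. With limma-voom, 5 of the 9 genes and 9393 of all genes were called in wild-type starvation, 1316 genes in knockout starvation and 3748 genes between genotypes in rich medium. In fits of the 4 libraries compared, 9332 genes were called in wild-type starvation, 0 genes and 0 of the 9 in knockout starvation, and 3245 genes between genotypes in rich medium. Leaving out each library gave 2 to 9 of the 9 and 265 to 8409 genes in knockout starvation, 3 to 6 and 1580 to 9561 in wild-type starvation, 2 to 5 and 452 to 8020 in the difference between responses, and 5127 to 11435 and 3369 to 10336 genes between genotypes in starved cells and in rich medium. The directions that turned belong to values that did not pass in the fit of all 8 libraries, but Lcn2 in knockout starvation passed in opposite directions without each rich knockout library. For Lcn2 in knockout starvation the log2 change was -0.000187 with RLE factors, -0.017 with limma-voom and -0.19 to 0.35 without single libraries. In wild-type starvation the values without single libraries were -0.31 to 4.42 for Saa3, -3.91 to 0.74 for Il6 and -1.83 to 0.052 for Ptges, and in the difference between responses -0.25 to 0.065 for C3 and -2.65 to 1.99 for Il6. The cause was not tested, but the wild-type groups of Saa3, Il6 and Ptges hold 3 to 8 counts. Replicate numbers are shared across groups without a stated pairing. A fit with a replicate block called 3, 6, 8, 9 and 4 of the 9 genes in wild-type starvation, knockout starvation, rich medium, starved cells and the difference, as without it, and correlations of same-numbered deviations were -0.03 to 0.06. Where a group was left with 1 library, it was assumed to vary like the others.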
